A study of Homo sapiens with 9 samples.

Results

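The transcripts of 10 AP-1 and immediate early factors were followed in MDA-MB-231 cells, a triple-negative breast cancer line, that had survived treatment with a ferroptosis inducer. The 10 genes are FOS, FOSB, FOSL1 and FOSL2 of the FOS family, JUN, JUNB and JUND of the JUN family, the related leucine zipper factor BATF3, the zinc finger factor EGR1, and IER3, an early response gene that encodes a survival protein and no transcription factor. They were chosen by name from the 58735 genes listed in each library, of which 34018 had a count in any library and 16188 passed the filter on low counts; all 10 passed it. The transcription factor column of the deposited tables places 8 of the 10 among its 48 basic leucine zipper genes, EGR1 among the zinc fingers, and IER3 in no family.

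AP-1 is a pair of basic leucine zipper proteins, either a JUN protein with a FOS protein or a pair of JUN proteins, that binds short DNA elements in promoters and enhancers. FOS, FOSB, JUN, JUNB, EGR1 and IER3 are immediate early genes, whose transcription starts within minutes of a growth or stress signal without new protein synthesis, whereas FOSL1 and JUND are often maintained in growing cells and FOSL1 is abundant in aggressive breast cancer lines. Growth factor and stress kinases of the MAPK pathway act on these genes through serum response factor with its ETS partners and through the JUN proteins themselves.

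There were 9 libraries in 3 groups of 3, all of the same cell line and named here by the study's terms. Vehicle cells received DMSO. Erastin-R cells had survived rising concentrations of erastin, which blocks cystine uptake through system xc-, and RSL3-R cells had survived RSL3, which inhibits the lipid peroxidase GPX4. The labels give neither the concentration nor the duration for the sequenced cells, nor whether the 3 samples of a group were separate cultures, so p-values measure the spread between these samples only, which may be technical. Cells that survive are a selected population, and selection and response cannot be told apart by the design.

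Total counts per library were 16344940 to 16837694 in vehicle, 15405102 to 17005927 in erastin-R and 15513592 to 17273464 in RSL3-R, so that 3 counts, the limit a count of 0 allows, correspond to 0.174 to 0.195 CPM (read counts scaled to library size). Of 5 genes known to be high in this line, VIM averaged 1475, 1445 and 1347 CPM in vehicle, erastin-R and RSL3-R cells and MSN 1459, 1421 and 1663 CPM, AXL was higher in both survivor groups (791, 1186 and 1045 CPM), and CAV1 (677, 308 and 374 CPM) and CD44 (314, 282 and 234 CPM) were lower in both. Of 5 genes known to be low, ESR1 had 1 to 12 counts, PGR 0 to 2, EPCAM 15 to 48 and CDH1 6 to 59 counts per library, with CDH1 higher in RSL3-R than in vehicle (log2 fold change 1.58, SE 0.33, edgeR adjusted p = 0.00130), and ERBB2 averaged 93.3, 81.9 and 62.0 CPM. Replicate 1 of erastin-R stood apart from the other 2 libraries of its group on the third principal component (-35.7 against 14.4 and 13.0), which carried 6.71% of the variance. Its mitochondrial share of counts was 7.95%, against 5.55% and 5.84% in the other 2, 7.97% to 8.93% in vehicle and 9.52% to 10.2% in RSL3-R. Results on erastin-R cells are therefore given with and without it where it matters.

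The promoters of EGR1, FOSB and JUNB are shown because the transcripts of these genes were at least 2-fold above vehicle in both survivor groups. Each line holds the 250 bases before the RefSeq start in GRCh38.p14, on the plus strand, with motif matches in capitals. EGR1 lies at chr5:138465229-138465478 and its capitals mark 2 CArG boxes, the element bound by serum response factor. FOSB lies at chr19:45467746-45467995 and JUNB at chr19:12791236-12791485, and their capitals mark a TATAAA box.
EGR1: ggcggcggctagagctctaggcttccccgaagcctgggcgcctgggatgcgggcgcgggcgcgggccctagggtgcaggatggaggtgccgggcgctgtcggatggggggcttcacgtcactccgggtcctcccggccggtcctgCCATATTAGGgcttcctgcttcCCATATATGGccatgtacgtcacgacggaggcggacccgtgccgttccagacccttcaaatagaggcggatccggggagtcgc
FOSB: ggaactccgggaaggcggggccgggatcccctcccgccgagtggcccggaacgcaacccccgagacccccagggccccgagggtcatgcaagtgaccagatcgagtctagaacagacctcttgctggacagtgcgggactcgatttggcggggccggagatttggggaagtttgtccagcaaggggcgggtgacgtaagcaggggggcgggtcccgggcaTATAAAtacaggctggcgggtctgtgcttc
JUNB: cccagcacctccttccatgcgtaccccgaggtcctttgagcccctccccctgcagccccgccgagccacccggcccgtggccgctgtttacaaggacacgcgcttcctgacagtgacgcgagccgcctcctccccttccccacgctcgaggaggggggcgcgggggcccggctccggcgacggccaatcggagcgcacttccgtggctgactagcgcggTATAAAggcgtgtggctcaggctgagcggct

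The table of promoters held 7 of the 10 genes; FOSL1, BATF3 and IER3 were not in it. A CArG box, searched on both strands, was present in 1 of the 7, with copies 105 to 96 and 83 to 74 bases before the start of EGR1, and in 1.16% of 35116 promoters of the same length. TATAAA, searched on the forward strand, was in 3 of the 7, namely FOS, FOSB and JUNB, with its first base 33, 30 and 31 bases before the start, and in 6.8% of all promoters. The cyclic AMP response element TGACGTCA was in JUND, with its first base 200 bases before the start (1.65% of all promoters), and its JUN variant TGACATCA in JUN, 67 bases before the start (2.37%). The AP-1 element TGACTCA and the EGR1 motif GCGGGGGCG were in 0 of the 7 and in 4.2% and 4.72% of all promoters; both strands were searched for each. A match is a run of letters, not a measured binding site.

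The first question was which of these genes differed between survivors and vehicle cells. In erastin-R cells, 8 of the 10 transcripts were higher and 1, FOS, was lower, with a median log2 fold change of 0.75 against -0.0042 over all 16188 genes tested. In RSL3-R cells 6 were higher and 1, FOSL2, was lower, with a median of 0.38 against 0.0052. These calls were made at an adjusted p under 0.05 by edgeR's quasi-likelihood test with Benjamini-Hochberg adjustment over all genes tested, at which 54% of all genes were called in erastin-R (27.1% higher and 26.8% lower) and 48.7% in RSL3-R (23.8% higher and 24.9% lower). With a change of at least 2-fold as well, 3 members rose in erastin-R (FOSB, JUNB, EGR1), where 13.4% of all genes were called (6.7% higher and 6.66% lower), and 4 rose in RSL3-R (FOSB, JUNB, EGR1, IER3), where 10.1% were called (6.02% higher and 4.08% lower). The 3 erastin-R libraries did not overlap vehicle for 10 of the 10 members (57.9% of all genes), and the RSL3-R libraries did not for 8 of the 10 (61.9%). Both comparisons use the same 3 vehicle libraries. RNA came from whole cultures, so a transcript that changed in every cell and one that changed in a fraction of the cells cannot be told apart.

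**Figure D1:**
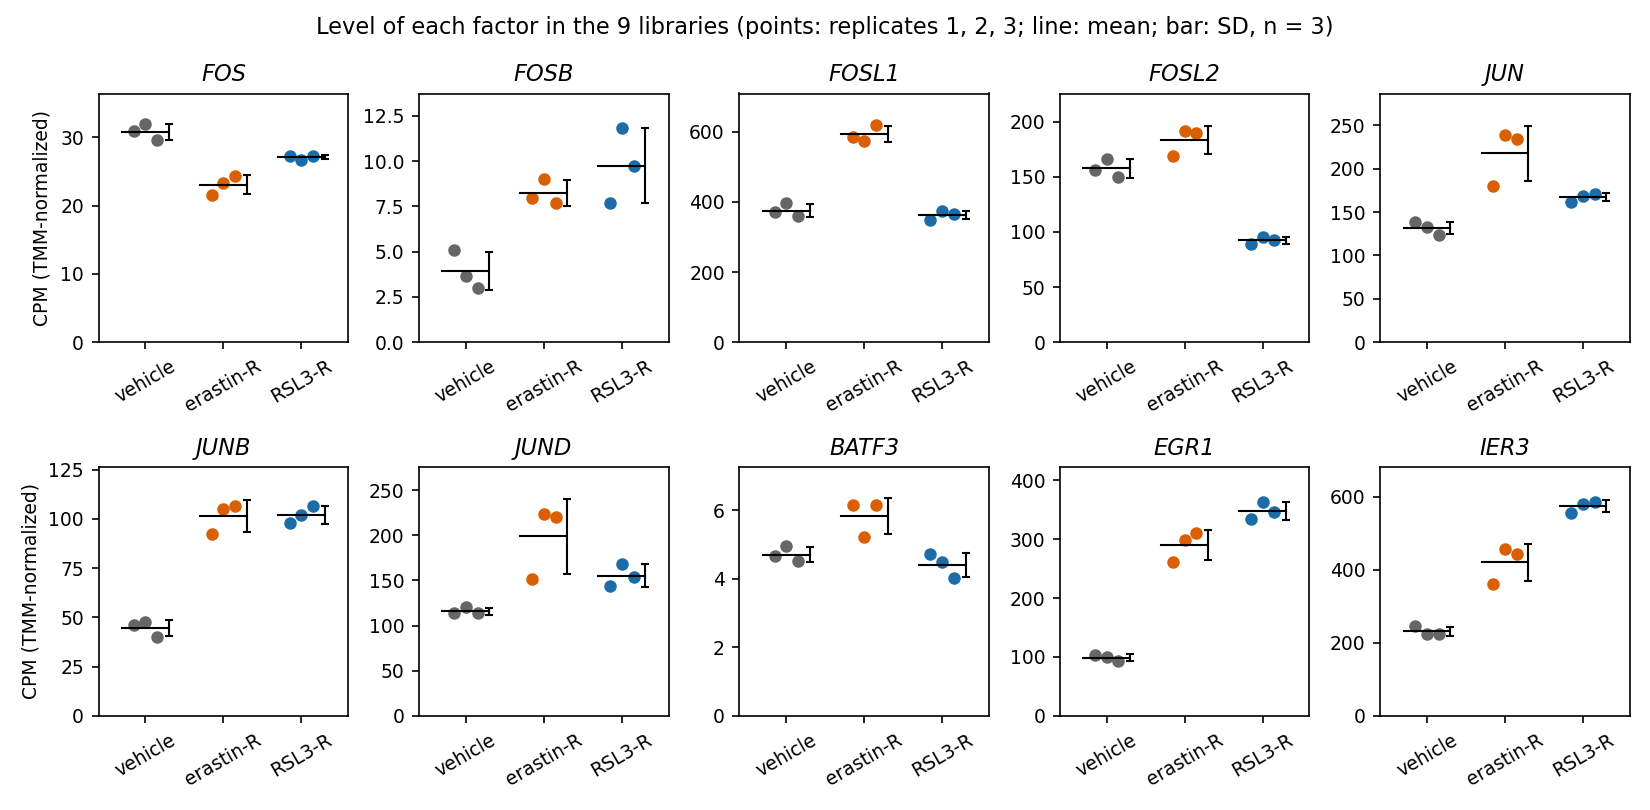
CPM (TMM-normalised, linear axes from 0) of each of the 10 genes in the 9 libraries, with points for replicates 1, 2 and 3, a line for the mean and a bar for the SD (n = 3). EGR1 averaged 98.8, 290.1 and 348 CPM in vehicle, erastin-R and RSL3-R, whereas FOSL1 averaged 376, 594 and 363 CPM and FOSL2 157, 183 and 92.6 CPM.

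FOS (chromosome 14, 75278774 to 75282230, plus strand), the founding FOS family member, was the one transcript that fell in erastin-R cells. It stood at 30.8, 31.9 and 29.5 CPM in the vehicle libraries, at 21.6, 23.3 and 24.3 CPM in erastin-R and at 27.2, 26.7 and 27.3 CPM in RSL3-R. The 3 groups did not overlap, with vehicle highest and erastin-R lowest. It fell in erastin-R by 0.42 on the log2 scale (SE 0.08, edgeR adjusted p = 0.000585) and the value in RSL3-R, -0.18 (SE 0.08, edgeR adjusted p = 0.0701), missed the threshold but passed it without erastin-R replicate 1 (adjusted p = 0.0336).

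FOSB (chromosome 19, 45467995 to 45475179, plus strand) was the scarcest FOS family transcript, with 49 to 85 counts per vehicle library. Its level was 5.07, 3.64 and 3.02 CPM in vehicle, 7.98, 9.03 and 7.66 CPM in erastin-R and 7.67, 11.8 and 9.70 CPM in RSL3-R. All 6 survivor libraries lay above the 3 vehicle libraries, and the survivor groups overlapped each other. It rose 2.10-fold in erastin-R (log2 fold change 1.07, SE 0.20, edgeR adjusted p = 0.000503) and 2.49-fold in RSL3-R (log2 fold change 1.31, SE 0.20, edgeR adjusted p = 9.68e-05). The erastin-R change fell below 2-fold without vehicle replicate 3 (0.91 on the log2 scale) or without erastin-R replicate 2 (0.995), with the adjusted p still under 0.05 in both.

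FOSL1 (chromosome 11, 65892049 to 65900573, minus strand), which encodes FRA1, separated the survivor groups. Vehicle libraries held 372, 396 and 359 CPM, erastin-R libraries 587, 575 and 619.7 CPM, and RSL3-R libraries 349, 373 and 366 CPM. Erastin-R was above both other groups without overlap, and RSL3-R overlapped vehicle. It rose 1.58-fold in erastin-R (log2 fold change 0.66, SE 0.06, edgeR adjusted p = 5.62e-07), and its log2 fold change in RSL3-R was -0.05 (SE 0.06, edgeR adjusted p = 0.495).

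FOSL2 (chromosome 2, 28392448 to 28417312, plus strand), which encodes FRA2, moved in opposite directions. Levels were 156, 167 and 149 CPM in vehicle, 169, 192 and 189 CPM in erastin-R and 89.5, 95.6 and 92.6 CPM in RSL3-R. No RSL3-R library reached the lowest library of either other group. FOSL2 fell in RSL3-R cells by 0.77 on the log2 scale (SE 0.07, edgeR adjusted p = 6.02e-07). In erastin-R the rise was small (log2 fold change 0.22, SE 0.07, edgeR adjusted p = 0.0121) and missed the threshold without vehicle replicate 3 (adjusted p = 0.0629) or without erastin-R replicate 2 (adjusted p = 0.0518).

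JUN (chromosome 1, 58780788 to 58784327, minus strand), a partner of all FOS proteins, was at 138, 133 and 124 CPM in vehicle, 181, 238 and 234 CPM in erastin-R and 162, 169 and 170.4 CPM in RSL3-R. Every survivor library exceeded every vehicle library, and erastin-R replicate 1 was the lowest of its group. JUN rose in erastin-R (log2 fold change 0.72, SE 0.09, edgeR adjusted p = 1.47e-05) and by less in RSL3-R (log2 fold change 0.34, SE 0.09, edgeR adjusted p = 0.00655). Without erastin-R replicate 1 the first value was 0.84.

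JUNB (chromosome 19, 12791496 to 12793315, plus strand), a JUN family member with weaker activation of many AP-1 sites than JUN, changed by nearly the same amount in both groups. The vehicle libraries had 46.1, 47.4 and 39.8 CPM, the erastin-R libraries 92.3, 105 and 107 CPM, and the RSL3-R libraries 97.7, 102 and 107 CPM. No survivor library came near the vehicle range, and the survivor groups overlapped. The rise was 2.28-fold in erastin-R (log2 fold change 1.19, SE 0.08, edgeR adjusted p = 5.65e-08) and 2.30-fold in RSL3-R (log2 fold change 1.20, SE 0.08, edgeR adjusted p = 4.80e-08). Of the exon length of JUNB, 14.2% (259 bases) overlaps HOOK2 on the opposite strand, which had 312 to 539 counts per library against 646 to 1826 for JUNB, and the strand setting of the counting is not given in the sources used here.

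JUND (chromosome 19, 18279760 to 18281622, minus strand), often the steadily expressed member of its family, was at 114, 120.4 and 114 CPM in vehicle, 151, 224 and 221 CPM in erastin-R and 144, 168 and 154 CPM in RSL3-R. The vehicle libraries were below all others, and erastin-R replicate 1 fell within the RSL3-R range. JUND rose in erastin-R (log2 fold change 0.78, SE 0.12, edgeR adjusted p = 8.37e-05) and in RSL3-R (log2 fold change 0.42, SE 0.12, edgeR adjusted p = 0.00913). The erastin-R value was 0.94 without replicate 1, whose mitochondrial share also differed from its group; the part of that share in the result was not tested.

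BATF3 (chromosome 1, 212686418 to 212699985, minus strand), a leucine zipper factor that pairs with JUN proteins and is best known from dendritic cells, was scarce, at 69 to 103 counts per library. It had 4.65, 4.94 and 4.50 CPM in vehicle, 6.13, 5.22 and 6.14 CPM in erastin-R and 4.71, 4.47 and 4.03 CPM in RSL3-R. The erastin-R libraries were above the rest, but neither difference from vehicle passed the test (log2 fold change 0.31, SE 0.15, edgeR adjusted p = 0.0884 in erastin-R; -0.09, SE 0.15, edgeR adjusted p = 0.635 in RSL3-R).

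EGR1 (chromosome 5, 138465490 to 138469315, plus strand), a zinc finger factor induced by serum and MAPK signalling and the gene whose promoter held both CArG boxes above, had the largest fold changes of the 10 against vehicle. It was at 104, 99.7 and 92.8 CPM in the vehicle libraries, 261, 299 and 310.3 CPM in erastin-R and 334, 364 and 346 CPM in RSL3-R. The 3 groups stood apart, in the order vehicle, erastin-R, RSL3-R. EGR1 rose 2.94-fold in erastin-R (log2 fold change 1.55, SE 0.07, edgeR adjusted p = 2.11e-09) and 3.52-fold in RSL3-R (log2 fold change 1.82, SE 0.07, edgeR adjusted p = 3.35e-10).

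IER3 (chromosome 6, 30743199 to 30744554, minus strand), which limits apoptosis and modulates ERK signalling, followed the same order. Its level was 245, 225 and 224 CPM in vehicle, 362, 457 and 444 CPM in erastin-R and 556, 582 and 585 CPM in RSL3-R. No library of one group entered the range of another. It rose 1.82-fold in erastin-R (log2 fold change 0.86, SE 0.08, edgeR adjusted p = 8.72e-07) and 2.48-fold in RSL3-R (log2 fold change 1.31, SE 0.08, edgeR adjusted p = 1.76e-08). The antisense gene IER3-AS1, which overlaps 26.5% of its exon length, had 0 to 6 counts per library.

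**Figure D2:**
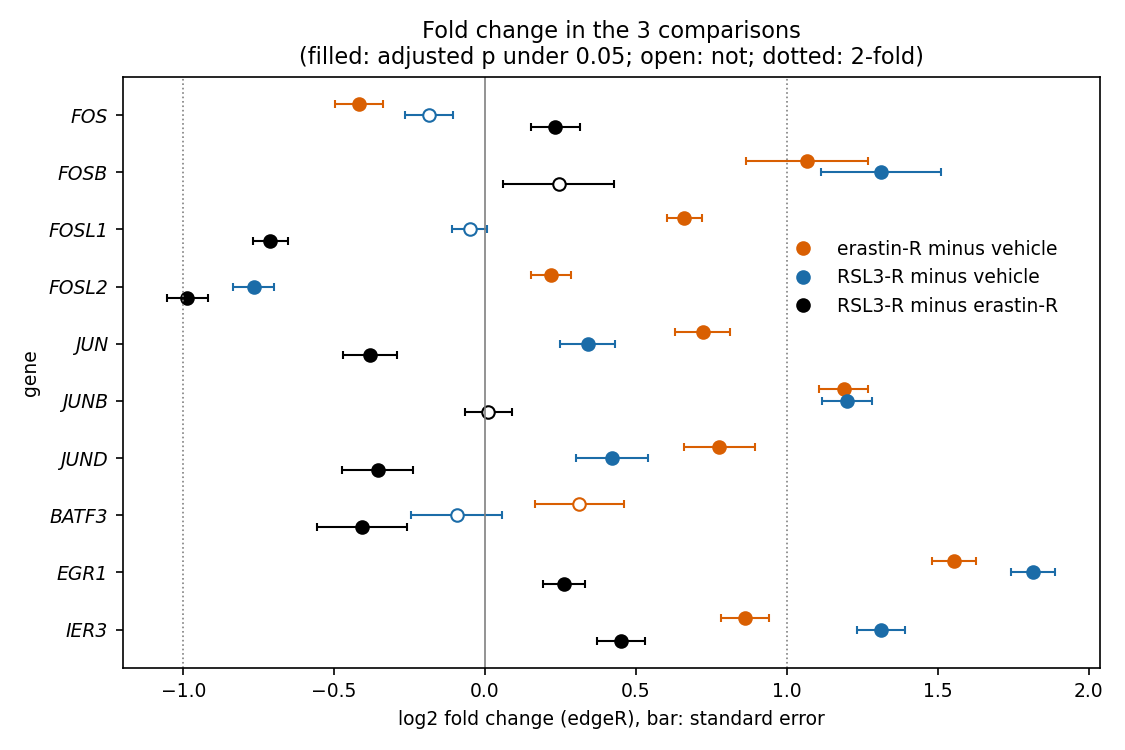
Log2 fold change (horizontal axis) of each gene in the 3 comparisons, with bars for the standard error derived from edgeR's F statistic. Filled points have an adjusted p under 0.05 and dotted lines mark 2-fold. JUNB lies at 1.19 and 1.20 against vehicle and at 0.01 between the survivor groups, whereas FOSL2 lies at 0.22, -0.77 and -0.99.

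The second question was how the survivor groups differed from each other. Between RSL3-R and erastin-R cells 8 of the 10 transcripts passed the adjusted p of 0.05, 3 higher in RSL3-R (FOS, EGR1, IER3) and 5 lower (FOSL1, FOSL2, JUN, JUND, BATF3), where 22.3% of all genes were higher and 26.9% lower. The median was -0.17, against -0.0237 over all genes, and the libraries of the survivor groups did not overlap for 7 of the 10 members (55.2% of all genes). With a change of at least 2-fold required, 0 members passed by edgeR or by DESeq2. At that limit edgeR called 10.3% of all genes (6.86% higher and 3.48% lower in RSL3-R). Of the 10, 8 had an unadjusted p under 0.05. The share of all genes at that unadjusted threshold was not computed, and 49.2% of them passed the adjusted one.

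FOSL2 and FOSL1 showed the widest gaps. FOSL2 was 1.98 times as high in erastin-R as in RSL3-R (log2 fold change of RSL3-R over erastin-R -0.99, SE 0.07, edgeR adjusted p = 8.87e-08), just inside the 2-fold limit, and passed it without erastin-R replicate 1 (-1.04) or without RSL3-R replicate 2 (-1.01). FOSL1 was 1.64 times as high in erastin-R (log2 fold change -0.71, SE 0.06, edgeR adjusted p = 5.09e-07). JUN was lower in RSL3-R by 0.38 (SE 0.09, edgeR adjusted p = 0.00298), and this call held when any 1 library was left out. JUND was lower by 0.36 (SE 0.12, edgeR adjusted p = 0.0215), a call lost without erastin-R replicate 2 or 3 (adjusted p = 0.0946 and 0.0896) or RSL3-R replicate 1 or 3 (0.136 and 0.0955). BATF3 was lower by 0.41 (SE 0.15, edgeR adjusted p = 0.0354), a call lost without erastin-R replicate 1 or 3 (adjusted p = 0.0788 and 0.0955) or any RSL3-R library (0.0695 to 0.165). In the other direction IER3 was higher in RSL3-R by 0.45 (SE 0.08, edgeR adjusted p = 0.000340) and EGR1 by 0.26 (SE 0.07, edgeR adjusted p = 0.00724). FOS was also higher, by 0.23 (SE 0.08, edgeR adjusted p = 0.0279), a call that was lost without erastin-R replicate 1 or 2 (adjusted p = 0.0672 and 0.0596) or RSL3-R replicate 2 (0.0553). FOSB (0.24, SE 0.18, edgeR adjusted p = 0.291) and JUNB (0.01, SE 0.08, edgeR adjusted p = 0.922) did not pass.

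Levels of different genes were compared per length, as the deposited FPKM. In vehicle cells FOSL1 led with a mean of 197 FPKM, followed by IER3 (169), JUND (61.6), JUN (36.9), EGR1 (31.2), JUNB (24.2), FOSL2 (21.8), FOS (9.40), BATF3 (1.71) and FOSB (0.697). JUNB and FOSL2 were the only neighbours in this order whose ranges over the 3 libraries overlapped, though JUNB was above FOSL2 within each library. In erastin-R cells FOSL1 (310.2 ± 13.4 FPKM, SD, n = 3) and IER3 (306 ± 38.5) could not be ordered, nor could JUND and EGR1, whose ranges overlapped. The ranges of JUN and JUNB overlapped too, though JUN was above JUNB within each library, by little in replicate 1 (50.05 against 49.75 FPKM). In RSL3-R cells IER3 led alone at 421 ± 12.0 FPKM, more than double FOSL1 at 191 ± 6.52, and EGR1 (110.0 ± 4.60) had moved above JUND (82.7 ± 6.59) and JUNB (55.7 ± 2.54) above JUN (46.8 ± 1.35). At the foot of the order BATF3 and FOSB overlapped in RSL3-R only.

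Summed over the 7 FOS and JUN family genes, the subunit transcripts came to 352 ± 15.9 FPKM in vehicle, 565 ± 44.1 in erastin-R and 399 ± 16.3 in RSL3-R (mean ± SD, n = 3). Both families contributed to the erastin-R sum: FOS family transcripts averaged 229 FPKM in vehicle and 344 in erastin-R, and JUN family transcripts 123 and 221. In RSL3-R the FOS family was at 214 FPKM and the JUN family at 185. The FOS family share was 64.7%, 65.5% and 65.2% in the vehicle libraries, 65.2%, 58.1% and 59.9% in erastin-R and 54.0%, 53.3% and 53.4% in RSL3-R. All 3 RSL3-R libraries were below the other 6, and erastin-R replicate 1 lay within the vehicle range; without it the erastin-R mean went from 61.1% to 59.0%. A two-sided exact permutation test over libraries gave p = 0.1 for RSL3-R against vehicle and against erastin-R and p = 0.3 for erastin-R against vehicle (0.15, 0.15 and 0.3 after Benjamini-Hochberg adjustment over the 3 comparisons), where 0.1 is the smallest p that 3 against 3 allows, so the design could not reach 0.05.

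Within that sum FOSL1 was the most abundant subunit in every library, with a share of 56.0% in vehicle, 55.1% in erastin-R and 47.8% in RSL3-R. JUNB took 6.87%, 9.73% and 14.0%, and JUND 17.5%, 18.5% and 20.7%. FOSL2 went from 6.19% in vehicle to 4.48% and 3.22%, and FOS from 2.68% to 1.24% in erastin-R and 2.08% in RSL3-R. FOSB stayed under 1% throughout, so its fold change bore little on the sum.

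**Figure D3:**
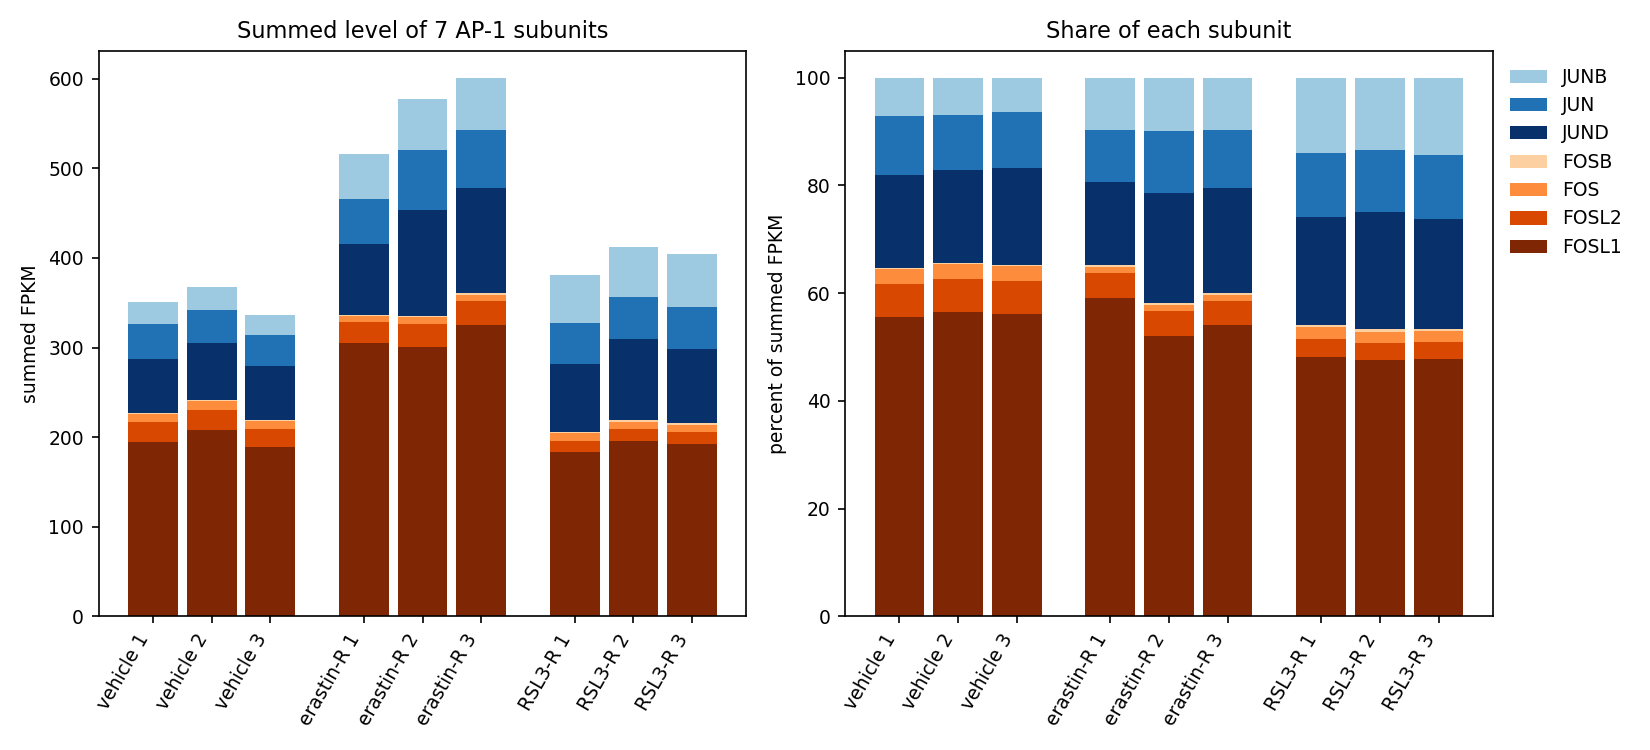
Summed FPKM (left) and share of the sum in percent (right) of 7 AP-1 subunit transcripts in each of the 9 libraries, with FOS family genes in orange and JUN family genes in blue. FOSL1 is the largest block in each bar, the mean sum is 352, 565 and 399 FPKM in vehicle, erastin-R and RSL3-R, and the JUNB block takes 6.87%, 9.73% and 14.0%.

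Other genes had profiles close to those of the members. Pearson's r of log2 CPM over the 9 libraries, given as a description because the 3 groups dominate it, was highest for FOS with MYD88 (0.989), VAPB (0.986) and SDC3 (0.985). FOSL1 was most like DAZAP1 (0.996), SLC39A7 (0.995) and HES7 (0.994). JUN was most like PDLIM4 (0.996), RHBDL1 (0.994) and SBNO2 (0.993). EGR1 was most like TNXB (0.998), ERN1 (0.997) and HES1 (0.997), of which HES1 averaged 21.8 CPM in vehicle, 51.6 in erastin-R and 62.8 in RSL3-R.

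AP-1 proteins also pair with further leucine zipper factors, and 13 of a list of 14 such partners and related leucine zipper factors (CREB1 and CREM among the latter) were tested; MAF was not. At an adjusted p under 0.05, 8 were higher and 2 (BATF, BATF2) lower in erastin-R, with a list median of 0.69. In RSL3-R 8 were higher and 1 (BATF) lower, with a median of 0.34. The 10 and 9 of 13 so called compare with 54% and 48.7% of all genes. At 2-fold 6 were higher in erastin-R and 4 in RSL3-R, with 0 lower in both. At that limit 13.4% and 10.1% of all genes were called (6.7% and 6.02% higher). JDP2, a JUN partner that represses AP-1 sites, went from 9.22 CPM in vehicle to 26.5 in erastin-R (log2 fold change 1.52, SE 0.11, edgeR adjusted p = 7.98e-08) and 34.7 in RSL3-R (1.91, SE 0.11, edgeR adjusted p = 7.91e-09). ATF3, a stress-induced factor of the same family, went from 5.13 CPM to 17.5 and 17.6 (1.77, SE 0.16, edgeR adjusted p = 6.69e-07, and 1.78, SE 0.16, edgeR adjusted p = 7.14e-07). Between the survivor groups BATF2 alone passed the 2-fold limit (1.09, SE 0.29, edgeR adjusted p = 0.00651), from 13 to 16 counts in erastin-R and 28 to 32 in RSL3-R. At that limit 10.3% of all genes were called. At any fold change 2 of the 13 were higher in RSL3-R and 4 lower, where 22.3% of all genes were higher and 26.9% lower.

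Of 29 other immediate early genes, 26 were tested, and EGR3, EGR4 and BTG2 were not. ATF3 is on this list and on that of AP-1 partners, and is counted in both. At an adjusted p under 0.05, 20 were higher and 1 (KLF10) lower in erastin-R with a median of 0.87, and 15 were higher and 1 (KLF6) lower in RSL3-R with a median of 0.62, or 21 and 16 of 26 where 54% and 48.7% of all genes were called. At 2-fold the counts were 10 and 6, all higher. At that limit 13.4% of all genes were called in erastin-R (6.7% higher) and 10.1% in RSL3-R (6.02% higher). Leaving out 1 library moved the erastin-R count between 8 and 13 and the RSL3-R count between 4 and 8. KLF4, a zinc finger factor, was at 37.1 CPM in vehicle, 42.9 in erastin-R and 135 in RSL3-R, where it rose (log2 fold change 1.86, SE 0.08, edgeR adjusted p = 5.62e-10) and exceeded erastin-R by 1.65 (SE 0.08, edgeR adjusted p = 3.55e-09). DUSP1, a phosphatase that switches off MAP kinases, was on the other side. It was at 493 CPM in erastin-R and 238 in RSL3-R (-1.05, SE 0.12, edgeR adjusted p = 9.37e-06). This gap was just under 2-fold without erastin-R replicate 2 (-0.96) or 3 (-0.97). SIK1, a kinase of the AMPK family, rose in erastin-R (2.05, SE 0.50, edgeR adjusted p = 0.00316), with a wide spread of 66 to 244 counts. NR4A3, an orphan nuclear receptor, rose from 3 to 4 counts per vehicle library to 20 to 24 in erastin-R (2.68, SE 0.54, edgeR adjusted p = 0.000874) and was lower in RSL3-R than in erastin-R (-1.56, SE 0.47, edgeR adjusted p = 0.0142), though not without RSL3-R replicate 1 (adjusted p = 0.0747) or 3 (0.0774). EGR2, a relative of EGR1, rose in RSL3-R from 2 to 5 counts to 10 to 20 (1.87, SE 0.54, edgeR adjusted p = 0.0112), a call lost without vehicle replicate 3 (adjusted p = 0.0510) or RSL3-R replicate 3 (0.0577). Between the survivor groups 4 of the 26 were higher in RSL3-R and 10 lower, with a median of -0.25. Of all genes 22.3% were higher and 26.9% lower in RSL3-R, with a median of -0.0237. Of the 26, 3 passed 2-fold, where 10.3% of all genes did, and 5 did so without erastin-R replicate 1.

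The 25 kinases and factors that act upstream of FOS, JUN and EGR1 were all tested, and most differences were under 2-fold. Against vehicle 0 rose 2-fold by edgeR or DESeq2. At that limit edgeR called 6.7% of all genes higher and 6.66% lower in erastin-R. In RSL3-R it called 6.02% higher and 4.08% lower. An unadjusted p under 0.05 was found for 16 of the 25 in each of these comparisons. The share of all genes at that unadjusted threshold was not computed for any comparison. MAP2K6, a kinase that activates p38, was lower in erastin-R (log2 fold change -1.25, SE 0.32, edgeR adjusted p = 0.00498) and in RSL3-R (-2.21, SE 0.36, edgeR adjusted p = 0.000175), from 42 to 56 counts in vehicle. MAP2K3, which also activates p38 and is named here after its values were seen, was more abundant (56.3, 81.6 and 77.4 CPM in vehicle, erastin-R and RSL3-R, against 3.08, 1.29 and 0.659 CPM for MAP2K6) and rose in erastin-R (0.53, SE 0.10, edgeR adjusted p = 0.000378) and in RSL3-R (0.46, SE 0.10, edgeR adjusted p = 0.00146). MRTFB, a coactivator of serum response factor, was lower in erastin-R (-1.09, SE 0.09, edgeR adjusted p = 2.31e-07). At any fold change 8 were higher and 7 lower in erastin-R with a median of 0.07, and 4 higher and 12 lower in RSL3-R with a median of -0.21. The 15 and 16 of 25 so called stand beside 54% and 48.7% of all genes. Between the survivor groups 0 passed the 2-fold limit by edgeR or DESeq2, with 18 at an unadjusted p under 0.05, and 1 passed it without erastin-R replicate 1 or without RSL3-R replicate 2. At the adjusted threshold 2 were higher and 14 lower in RSL3-R, with a median of -0.34. Of all genes 22.3% were higher and 26.9% lower in this comparison, with a median of -0.0237, and 10.3% passed 2-fold.

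Of 25 known AP-1 target genes 20 were tested; MMP3, MMP10, MMP13, SPP1 and CDKN2A were not. In erastin-R 9 were higher and 8 lower, with a median of -0.09. In RSL3-R 14 were higher and 2 lower, with a median of 0.43. These are 17 and 16 of 20, again where 54% and 48.7% of all genes were called. Of all genes 27.1% were higher and 26.8% lower in erastin-R, and 23.8% higher and 24.9% lower in RSL3-R. At 2-fold 6 targets were higher and 3 lower in erastin-R, where 13.4% of all genes were called. In RSL3-R 3 were higher and 0 lower at 2-fold, where 10.1% of all genes were called. In erastin-R IL11, a cytokine, rose from 26.5 to 121 CPM (log2 fold change 2.19, SE 0.12, edgeR adjusted p = 7.59e-09) and HMOX1, which degrades heme, from 8.76 to 25.4 CPM (1.53, SE 0.11, edgeR adjusted p = 9.36e-08), while CCND1, encoding cyclin D1, went from 479 to 231 CPM (-1.05, SE 0.05, edgeR adjusted p = 2.71e-09) and the gelatinase gene MMP9 from 24 to 36 counts to 4 to 14 (-1.75, SE 0.43, edgeR adjusted p = 0.00336). In RSL3-R the cytokine genes IL6 (5.87 to 31.8 CPM, log2 fold change 2.44, SE 0.12, edgeR adjusted p = 1.49e-09) and CXCL8 (11.9 to 74.5 CPM, 2.65, SE 0.09, edgeR adjusted p = 9.09e-11) led. Between the survivor groups 12 of the 20 were higher in RSL3-R and 5 lower, where 22.3% of all genes were higher and 26.9% lower. At 2-fold 5 were higher and 2 lower, where 6.86% and 3.48% of all genes were. The collagenase gene MMP1 (2.15, SE 0.21, edgeR adjusted p = 2.88e-06) and MMP9 (1.54, SE 0.44, edgeR adjusted p = 0.00993) were higher in RSL3-R than in erastin-R. IL11 (-1.76, SE 0.12, edgeR adjusted p = 7.04e-08) and HMOX1 (-1.04, SE 0.11, edgeR adjusted p = 4.04e-06) were lower. The MMP9 call was lost without RSL3-R replicate 2 (adjusted p = 0.0643), and HMOX1 fell just short of 2-fold without RSL3-R replicate 1 (-0.92).

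**Figure D4:**
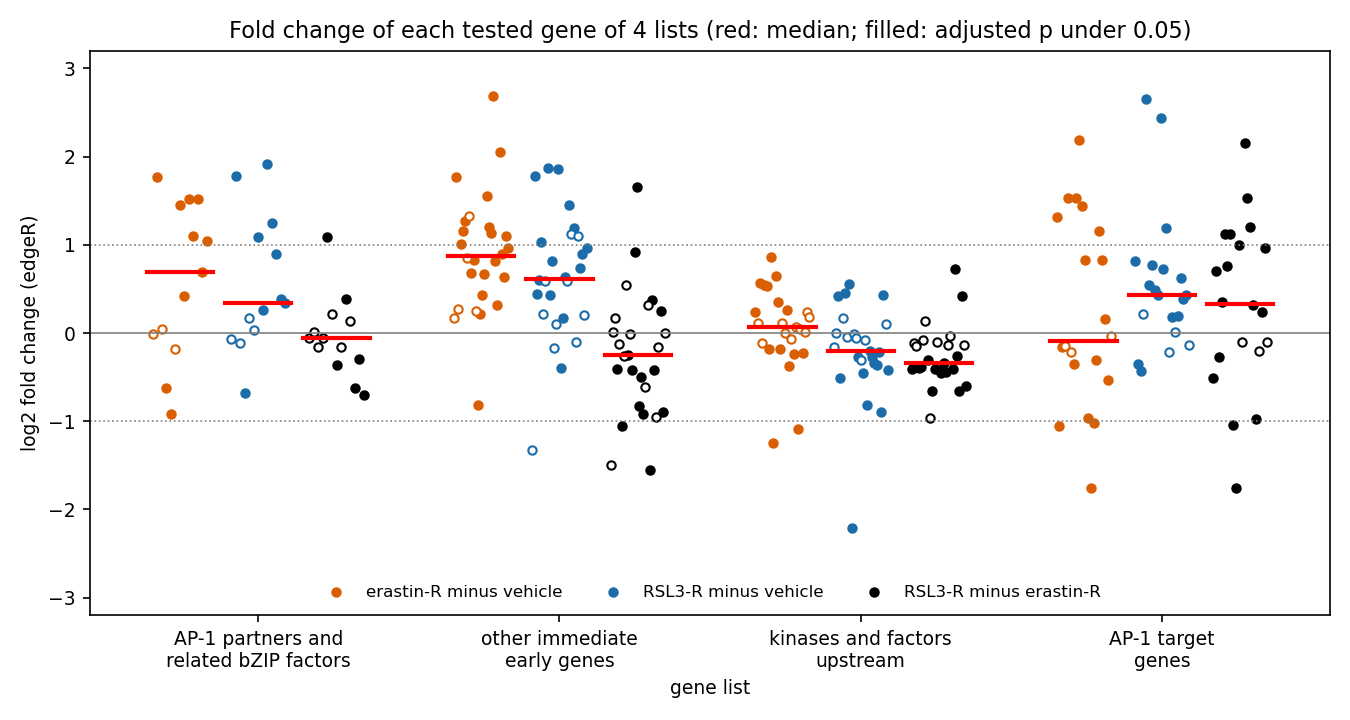
Log2 fold change (vertical axis, edgeR) of each tested gene of 4 lists in the 3 comparisons; red lines are medians, filled points have an adjusted p under 0.05 and dotted lines mark 2-fold. The medians of other immediate early genes are 0.87, 0.62 and -0.25, and those of AP-1 target genes -0.09, 0.43 and 0.33.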

How the data were processed

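Poly(A) RNA of 9 MDA-MB-231 samples was sequenced. Per the labels' processing notes the authors aligned reads with HISAT2 (version 2.0.5) and counted them with featureCounts (version 1.5.0-p3); the strand setting and genome build are not given in the sources used here, but all 58735 gene identifiers matched GENCODE release 29 on GRCh38. The deposited counts are raw counts of uniquely mapped exonic reads per gene. The deposited FPKM, which the authors computed, are those counts divided by gene length and by a library size. That size was 0.990 (vehicle replicate 3) to 1.035 (erastin-R replicate 2) times the total count of the library, so it was not that total itself.

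Groups and replicate numbers came from the labels. Counts were fitted with edgeR (version 4.0.16; TMM, filterByExpr, glmQLFit, glmQLFTest) in 1 model of 9 libraries without covariates (6 residual degrees of freedom), with Benjamini-Hochberg adjustment over 16188 genes; the study's own Cufflinks test needs reads and was not run. A call is an adjusted p under 0.05, and where 2-fold is stated also a log2 fold change of 1 or more in either direction. CPM are TMM-normalised. SE was derived from edgeR's output, as the absolute log2 fold change over the square root of the F statistic. On simulated counts for erastin-R against vehicle over 16188 genes, the test called 79 of 100 genes changed 2-fold and 98 of 100 changed 4-fold. It also called 7 unchanged genes. No further genes were changed in the simulation, whereas 54% of all genes were called in the data, so these rates need not hold there. The members, lists and named genes (all members; in each list and comparison, up to 2 genes with the largest rise and 2 with the largest fall past the 2-fold call; the 3 protein-coding genes most like each of FOS, FOSL1, JUN and EGR1) were chosen with earlier results of these data known; the values of 1 gene of the lists are not reported here. Alternatives were DESeq2 (version 1.42.0), its size factors, no filter, fits of 2 groups, the replicate block and leaving out each library. The 3 samples sharing a number did not vary together: the correlation of their deviations ranged from -0.0904 to 0.0518 over 9 pairs, so the numbers were not used as pairs. Of 50-base words in the exons, 11.9% of those of JUNB and 23.1% of those of IER3 also occurred in other genes, both strands counted; 2.91% did for FOSL1, 0.0515% for FOSB and 0 for the other 6.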

Additional observations from a re-analysis of the deposited data

How the results depend on the processing

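Calls of 2-fold changes against vehicle for EGR1 and JUNB, and for FOSB and IER3 in RSL3-R, held under each of the 14 alternatives. Over the alternatives, values of single members stayed on the same side of the threshold in 394 cases, lost the call in 21, gained it in 2 and changed sign in 3. The sign changes concerned differences that passed no test: FOSL1 in RSL3-R against vehicle (log2 fold change -0.0874 to 0.0125 when 1 library was left out, highest without RSL3-R replicate 1), BATF3 in the same comparison (-0.128 to 0.0042, highest without RSL3-R replicate 3), and JUNB between the survivor groups (-0.0543 to 0.0772, lowest without erastin-R replicate 1). Most lost calls lay between the survivor groups, where FOS and JUND kept theirs in 10 of 15 fits and BATF3 in 6 of 15. Leaving out 1 library moved the count of members past 2-fold between the survivor groups between 0 and 1, that of other immediate early genes between 2 and 5, and that of upstream kinases and factors between 0 and 1. The replicate block raised that last count to 1 and took the calls of FOS (adjusted p = 0.0511) and BATF3 (adjusted p = 0.0589) between the survivor groups. The cause was not tested. Depth limited FOSB and BATF3 most, with 49 to 190 and 69 to 103 counts per library.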
